A study of Mus musculus with 12 samples.

Results

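The response to LPS was followed in the mouse macrophage-like line RAW264.7, in cells that were given an antibody against CD36 as well. The contrast sets 3 RNA sequencing libraries of cells treated with LPS at 50 ng/ml and anti-CD36 antibody at a dilution of 1 in 100 against 3 libraries of cells treated with the antibody alone at that dilution. These are 6 of the 12 libraries of the study. Tests covered the 10276 genes that reached 1 FPKM or more in 3 or more of the 12 libraries, where FPKM is a read count scaled by gene length and library depth. Both groups are wild type by their labels and both carry the antibody, so what the antibody does without LPS is on both sides of the difference. The other 6 libraries, from untreated cells and from cells given only LPS at 50 ng/ml, serve to set the same LPS change beside it. The labels name no treatment time, no isotype control antibody and no separate cultures, so p-values speak only to the spread between libraries. Il6 was left out, because its values in 3 of 3 antibody libraries are those of another entry of the table.

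LPS is a component of the outer membrane of Gram-negative bacteria. Macrophages sense it through TLR4, with MD-2 (gene Ly96) and the co-receptor CD14, and signal through MyD88 and TRIF to NF-kB, the MAP kinases and the interferon regulatory factors. The first genes to be switched on code for cytokines, chemokines and feedback inhibitors, and secreted interferon beta then drives a further set of genes through JAK-STAT signalling. CD36, the target of the antibody, is a scavenger receptor that binds oxidised lipoproteins and takes up long-chain fatty acids.

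The 6 libraries held 30139410 to 48637090 counted reads, recovered from the steps of the FPKM values, and 14232 to 14857 genes above 0. For a gene of 2000 bases, 1 FPKM stood for 60.3 to 97.3 reads. Replicates correlated by r of 0.9887 to 0.9947 in the antibody group and 0.9933 to 0.9965 in the group with LPS. Of 24 macrophage markers 13 were at 1 FPKM or more in all 6 libraries, with summed levels of 4400 to 4697 FPKM without LPS and 4892 to 5229 FPKM with it, most of it from the lysozyme gene Lyz2. Cd163, Timd4, C1qb and C1qc, markers of tissue-resident macrophages, were at 0 in all 6 libraries. Among markers of other cell types only Lck (mean of 2.56 FPKM without LPS and 6.15 FPKM with it), Ighm (45.8 and 68.3 FPKM) and Csf3r (1.55 and 1.20 FPKM) were at 1 FPKM or more in every library, while the defining markers Cd3d, Cd8a, Ms4a1, Ly6g, Epcam and Col1a2 were at 0 in all 6.

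Promoters of 4 genes are shown first, because each gene belongs to a group that the results turn on and its promoter holds the short motif usually linked to that group. They are the 250 bases before the RefSeq start site on GRCm38.p6, written 5′ to 3′ on the strand of the gene. Matches on either strand to the motif named for each gene are in capitals. Cxcl2 stands for the chemokines (chr5:90903649-90903898, plus strand, NF-kB-type motif GGGNNNNNCC, of which a pair of matches overlap). Phf11b stands for the interferon-stimulated genes (chr14:59341331-59341580, minus strand, interferon response core GAAANNGAAA). Cenpa stands for the mitosis genes (chr5:30666636-30666885, plus strand, CCAAT, here as its reverse complement ATTGG). Bnip3 stands for the targets of hypoxia-inducible factor (chr7:138909507-138909756, minus strand, ACGTG, which overlaps its own reverse complement). Motifs of the other groups are not marked. Bnip3 also holds NF-kB-type and CCAAT matches, Cenpa NF-kB-type and ACGTG matches, and Phf11b a match to the cell cycle motif TTTGAA. These 4 genes and the ACGTG motif were chosen after the values were seen.
Cxcl2: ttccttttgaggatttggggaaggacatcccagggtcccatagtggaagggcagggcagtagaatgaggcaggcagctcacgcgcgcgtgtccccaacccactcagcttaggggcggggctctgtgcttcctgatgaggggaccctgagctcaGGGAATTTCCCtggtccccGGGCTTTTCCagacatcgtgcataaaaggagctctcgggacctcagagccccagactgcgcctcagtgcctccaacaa
Phf11b: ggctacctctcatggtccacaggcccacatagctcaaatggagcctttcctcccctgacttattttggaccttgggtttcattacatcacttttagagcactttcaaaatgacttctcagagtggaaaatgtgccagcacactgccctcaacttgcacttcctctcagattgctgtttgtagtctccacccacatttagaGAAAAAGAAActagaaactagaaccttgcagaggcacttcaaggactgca
Cenpa: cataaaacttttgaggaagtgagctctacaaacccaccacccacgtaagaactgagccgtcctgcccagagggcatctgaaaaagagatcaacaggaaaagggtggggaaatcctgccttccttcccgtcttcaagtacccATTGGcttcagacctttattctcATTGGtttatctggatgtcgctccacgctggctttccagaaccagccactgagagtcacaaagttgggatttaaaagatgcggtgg
Bnip3: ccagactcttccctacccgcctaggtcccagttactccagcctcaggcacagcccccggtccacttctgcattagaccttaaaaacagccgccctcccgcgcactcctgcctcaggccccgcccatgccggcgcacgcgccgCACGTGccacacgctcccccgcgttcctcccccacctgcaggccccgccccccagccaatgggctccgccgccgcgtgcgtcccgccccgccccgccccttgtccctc

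RefSeq promoters could be matched to 8042 of the 10276 tested genes, 10207 promoters in all, and the motifs were searched on both strands of the same 250 bases. The interferon core lay in 2.82% of promoters of tested genes, 10.4% of those of genes called at least 2-fold higher and 33.9% of the 59 promoters of interferon-stimulated genes. CCAAT lay in 35.6% of promoters of tested genes, 70.6% of the 51 mitosis promoters and 61.4% of the 44 DNA replication promoters. The cell cycle homology region TTTGAA lay in 10.8% of promoters of tested genes and 35.3% of the mitosis promoters. ACGTG, the core of the hypoxia response element, lay in 22.7% of promoters of tested genes and 45.7% of the 35 promoters of the hypoxia list. The NF-kB-type motif is loose: it lay in 61.3% of promoters of tested genes, 57.7% of those of the 2-fold risers and 50% of the 18 cytokine promoters. The windows of Il1b and of the interferon-stimulated gene Slfn2 held no match to the motif of their group, and the promoters of Csf3 and Foxm1 were not in the table. A match is a description of letters, and binding was not measured.

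LPS moved close to every other gene in antibody-treated cells, with more genes lower than higher but larger rises than falls. At an adjusted p under 0.05 (limma, Benjamini-Hochberg) 1670 of 10276 genes were higher (16.3%) and 3212 lower (31.3%), 4882 together (47.5%), and 5547 had an unadjusted p under 0.05. Among called genes 492 were at least 2-fold higher and 426 at least 2-fold lower on the log2(FPKM + 1) scale, and in mean FPKM 126 were at least 10-fold higher and 13 at least 10-fold lower. The 2-fold risers took 3.15 to 3.36% of the summed FPKM of each antibody library and 15.23 to 16.15% of each library with LPS. The groups did not overlap for 6571 genes (63.9%), 4855 of them called, so a lack of overlap alone does not set a gene apart. On the libraries without LPS 450 of the tested genes would not have passed the filter, and 431 on those with LPS. Of the 9500 that passed on both, 1420 were higher and 2984 lower. The median change of all genes tested was −0.12, and list medians are read against it. With median-of-ratios scaling that median was −0.01 and 2248 genes were higher against 2217 lower, a higher share of 50.3% in place of 34.2%. In bulk RNA, fewer cells of a type and less RNA per cell cannot be told apart.

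**Figure D1:**
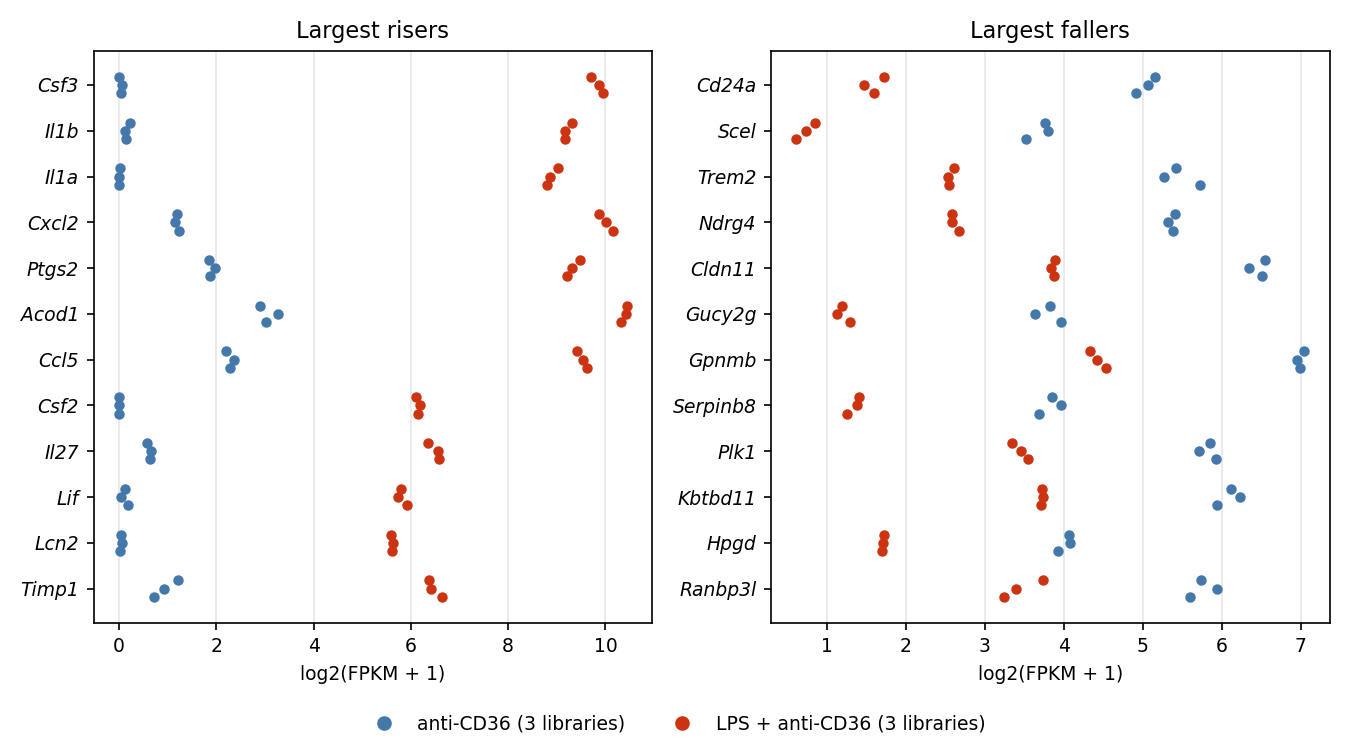
Levels of the 12 genes of largest rise (left) and the 12 of largest fall (right) as log2(FPKM + 1), 1 point per library, blue for the 3 anti-CD36 libraries and red for the 3 LPS plus anti-CD36 libraries. The genes were chosen so that the groups do not overlap. Csf3, Il1a and Csf2 start at or near 0, whereas Acod1 starts from a mean of 7.42 ± 1.15 FPKM.

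The genes of largest rise code mostly for secreted inflammatory proteins. Csf3, the granulocyte growth factor G-CSF, stood at 0.0373, 0.0470 and 0 FPKM in the 3 antibody libraries and at 985, 931 and 838 FPKM with LPS. Il1b, the precursor of interleukin 1 beta, stood at 0.110, 0.0870 and 0.172 FPKM against 576, 575 and 638. Il1a, the precursor of interleukin 1 alpha, stood at 0, 0 and 0.0166 FPKM against 442, 466 and 522. In these 3 genes every antibody library lay near 0 and every library with LPS above 400 FPKM. Their log2 changes were 9.80 (SE 0.14, adjusted p = 2.21e-13), 9.05 (SE 0.08, adjusted p = 7.23e-15) and 8.89 (SE 0.12, adjusted p = 2.21e-13). None of these genes reached 1 FPKM in an antibody library, so the filter favoured their rise. Csf2, the growth factor GM-CSF, was listed at 0 in all 3 antibody libraries and at 69.8, 71.5 and 68.2 FPKM with LPS. Tnf, the tumour necrosis factor gene, was already well above the floor, at 65.7, 64.2 and 72.5 FPKM, and stood at 1315, 1253 and 1186 FPKM with LPS (log2 change 4.19, adjusted p = 2.25e-11).

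Over the list of inflammatory cytokines 21 of 22 tested genes rose and 0 fell, with a median log2 change of 3.20. The other 10 of the 32 listed were not tested, and 14 of the 22 would not have passed the filter on the libraries without LPS, so the filter favoured their rise. Of the 8 that also passed without LPS 7 rose, with a median of 2.32. Il15, a growth factor for lymphocytes and the member not called, stood at 1.34, 1.50 and 1.84 FPKM without LPS and 1.73, 1.84 and 1.96 FPKM with it, ranges that overlap. The gene is named here after its values were seen, as are Ifnb1 and Il1rn. Lif, a cytokine of the interleukin 6 family, rose from 0.0888 ± 0.0574 to 55.6 ± 3.53 FPKM (mean ± SD, n = 3 libraries, here and below). Il27, a subunit of interleukin 27, rose from 0.545 ± 0.0548 to 89.8 ± 7.77 FPKM, and Lta, lymphotoxin alpha, from 0.168 ± 0.118 to 24.6 ± 0.586 FPKM. Il1rn, the antagonist of the interleukin 1 receptor, rose with the ligands it opposes, from 13.8 ± 0.0260 to 258 ± 8.14 FPKM. Ifnb1, the interferon that drives the second set of genes, was listed at 0 in the 3 antibody libraries and stood at 1.88, 1.66 and 1.32 FPKM with LPS.

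Chemokines, which attract other leukocytes, rose in 13 of 14 tested genes and fell in 1, with a median of 4.07. Cxcl2, which draws neutrophils and whose promoter is printed above, stood at 1.35, 1.22 and 1.30 FPKM with the antibody and 1138, 1036 and 934 FPKM with LPS added (log2 change 8.82, SE 0.09, adjusted p = 2.32e-14). Ccl5, which draws T cells and monocytes, stood at 3.89, 4.18 and 3.62 FPKM against 792, 747 and 679. Cxcl10, an interferon-driven attractant of T cells, stood at 1.39, 1.43 and 1.97 FPKM against 71.6, 79.2 and 83.9. For each of these 3 genes all libraries with LPS lay far above all libraries without it. Ccl22 and Ccl17, ligands of the receptor CCR4, rose from 3.21 ± 0.245 to 188 ± 13.8 FPKM and from 0.0215 ± 0.0373 to 30.1 ± 6.55 FPKM. The chemokine that fell was Cxcl14, from 3.22 ± 1.13 to 1.49 ± 0.0104 FPKM (a change of −0.73 in log2, adjusted p = 0.00427).

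The sensing complex itself moved in both directions. Cd14 stood at 669.6, 606 and 641 FPKM in the antibody libraries and 2081, 2008 and 1873 FPKM with LPS, a log2 change of 1.64 (adjusted p = 1.33e-06). Tlr4, the signalling receptor, stood at 7.17, 8.49 and 6.61 FPKM against 3.52, 3.89 and 4.53, a log2 change of −0.76 (adjusted p = 0.00327). Neither gene had overlapping groups, so the co-receptor was higher and the receptor lower in every library with LPS. Ly96 stood at 9.85, 10.7 and 6.53 FPKM against 7.87, 8.001 and 9.36, with overlapping groups and no call (adjusted p = 0.764). Of 37 tested genes of LPS sensing and TLR4 signalling 10 rose and 7 fell, with a median of −0.04, and with TPM scaling 9 rose and 10 fell. The risers included the kinases Irak2 (from 5.66 ± 0.582 to 33.5 ± 0.388 FPKM) and Ikbke (from 1.46 ± 0.136 to 14.6 ± 0.830 FPKM), the interferon regulatory factor Irf7 (from 34.4 ± 4.52 to 188 ± 5.58 FPKM) and Irak3, which restrains the pathway (from 0.969 ± 0.228 to 6.88 ± 0.822 FPKM). Tlr13, the sensor of bacterial ribosomal RNA, fell from 9.83 ± 0.798 to 2.98 ± 0.554 FPKM.

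Genes that make up and restrain NF-kB signalling rose in 20 of 25 cases and fell in 1, with a median of 1.27. Socs3, which blocks cytokine receptor signalling, stood at 1.61, 1.39 and 1.56 FPKM without LPS and 60.5, 56.0 and 53.7 FPKM with it (log2 change 4.52, adjusted p = 4.29e-11). Nfkbiz, a nuclear co-regulator of NF-kB targets, rose from 1.86 ± 0.247 to 51.7 ± 2.91 FPKM, and Zc3h12a, the nuclease regnase-1 that destroys cytokine mRNAs, from 3.52 ± 0.177 to 33.0 ± 1.80 FPKM. The subunit Rela was the member that fell, from 16.8 ± 1.25 to 13.5 ± 0.321 FPKM (change of −0.29 in log2, adjusted p = 0.0265, and not called in 6 of 24 alternatives, among them leaving out anti-CD36 replicate 1 or 3 or any LPS plus anti-CD36 library). Of 15 MAP kinase phosphatases and Sprouty or Spred inhibitors 9 rose (60.0%, beside 16.3% of all genes) and 4 fell (26.7%, near the 31.3% of all genes). Without LPS 2 of the 15 would not have passed the filter, and of the 13 that passed both with and without it 7 rose and 4 fell. Among the risers were Dusp5 (from 2.74 ± 0.391 to 35.0 ± 2.52 FPKM) and Dusp2 (from 6.07 ± 1.08 to 33.0 ± 2.00 FPKM). The fallers numbered 2 without replicate 1 of either group, and 1 without anti-CD36 replicate 3 or LPS plus anti-CD36 replicate 2 or 3, as with median-of-ratios scaling.

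Immediate early factors, the transcription factors that are switched on without new protein, rose in 19 of 29 cases and fell in 7, with a median of 0.70. Without LPS 3 of the 29 would not have passed the filter, and of the 26 that passed both with and without it 17 rose and 7 fell. Atf3 stood at 4.20, 5.99 and 4.02 FPKM without LPS and 35.1, 34.1 and 34.2 FPKM with it, and Myc, near the floor at 0.136, 0.122 and 0.121 FPKM, at 5.67, 5.07 and 4.81 FPKM. The groups of both genes were far apart. Klf10 and Egr3 fell, from 11.0 ± 1.38 to 2.71 ± 0.308 FPKM and from 6.57 ± 0.307 to 1.66 ± 0.232 FPKM.

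Interferon-stimulated genes rose in 53 of 59 tested cases and fell in 0, with a median of 1.39. Slfn2, a Schlafen family regulator of leukocyte growth, stood at 45.8, 52.2 and 49.9 FPKM in the antibody libraries and 414, 418 and 416 FPKM with LPS (log2 change 3.06, SE 0.08, adjusted p = 6.54e-11). Phf11b, whose printed promoter holds the interferon core, stood at 14.3, 13.2 and 13.5 FPKM against 107, 108 and 116, and is uncertain in level because it has close copies such as Phf11d among which reads can be split. Zbp1, a sensor of Z-form nucleic acid, stood at 2.48, 2.09 and 1.79 FPKM against 56.2, 55.6 and 51.9. Each of these genes was high in all 3 libraries with LPS and low in all 3 without. All 9 tested guanylate-binding proteins and immunity-related GTPases, which attack vacuoles that hold pathogens, rose too, among them Gbp3 (from 0.345 ± 0.112 to 20.1 ± 1.59 FPKM) and Gbp2 (from 0.0971 ± 0.0465 to 10.5 ± 0.265 FPKM), which are similar in sequence to other members. Of 22 JAK-STAT components 13 rose and 4 fell: Stat2, which carries the interferon signal, rose from 3.98 ± 0.320 to 11.8 ± 0.519 FPKM, and Il6ra, the interleukin 6 receptor, fell from 7.75 ± 0.886 to 1.99 ± 0.167 FPKM.

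In class I antigen presentation 17 of 23 genes rose and 1 fell, with a median of 0.63. Tap1, which carries peptides into the endoplasmic reticulum, rose from 7.97 ± 0.381 to 15.9 ± 0.828 FPKM, and Psme2, a proteasome activator subunit, from 99.5 ± 6.81 to 232 ± 19.8 FPKM. Only 4 of 11 listed genes of class II presentation were tested, of which 2 rose and 2 fell, or 2 and 1 without any 1 of the 3 anti-CD36 libraries or LPS plus anti-CD36 replicate 1 or 3. Cd74, the invariant chain, rose from 96.7 ± 5.95 to 145 ± 4.31 FPKM and Ifi30, a lysosomal reductase, fell from 187 ± 11.8 to 80.2 ± 1.73 FPKM. In the list of inflammasome and cell death genes 17 of 27 rose and 0 fell, among them the sensor Nlrp3 (from 11.9 ± 1.30 to 46.7 ± 1.23 FPKM) and Mlkl, the effector of necroptosis (from 6.84 ± 0.280 to 33.3 ± 1.64 FPKM).

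**Figure D2:**
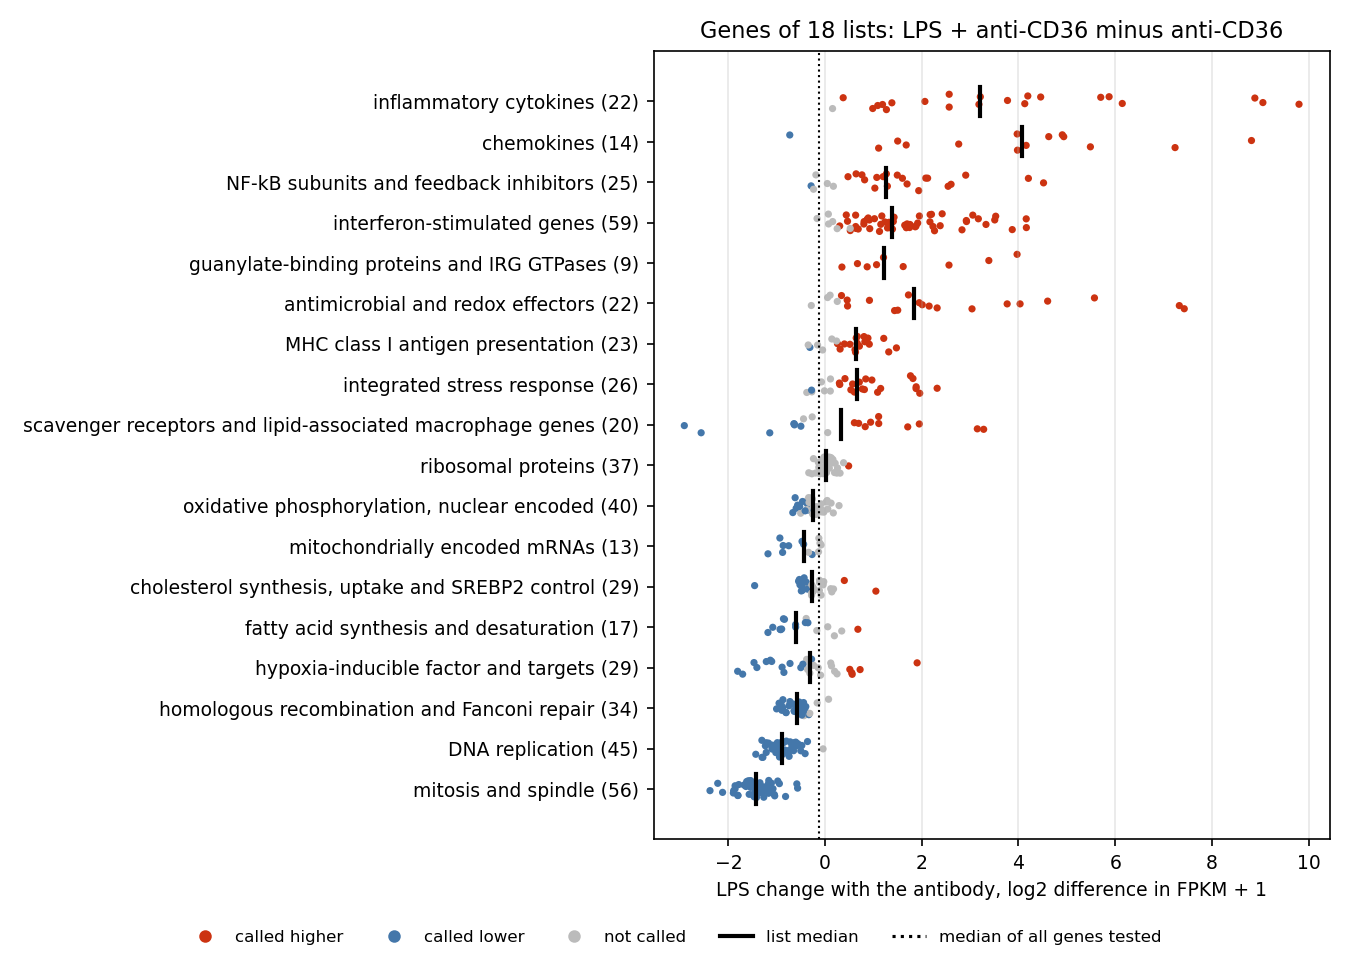
Log2 change of each tested gene in 18 gene lists, LPS plus anti-CD36 minus anti-CD36 on the log2(FPKM + 1) scale, with the number of tested genes in brackets. Red points were called higher, blue points lower and grey points not called, black bars are list medians and the dotted line is the median of all genes at −0.12. Cytokines and chemokines reach farthest right (medians 3.20 and 4.07) and mitosis genes lie farthest left (−1.42).

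In limma at an unadjusted p under 0.05, the lists with no called faller held 0 lower members for the cytokines, the interferon-stimulated genes and the guanylate-binding proteins, 1 for the effectors and 1 for the inflammasome list. The lists with no called riser held 0 higher members for mitosis, DNA replication, homologous recombination, oxidative phosphorylation and the mitochondrial mRNAs. The deposited values are FPKM and were tested as such, and no count model was run on the recovered reads. Among the tested members, 3 of 14 chemokines, 7 of 59 interferon-stimulated genes, 5 of 9 guanylate-binding proteins and related GTPases and 6 of 22 effectors would likewise not have passed on the libraries without LPS. Of those that passed both with and without LPS, 10 of 11, 46 of 52, 4 of 4 and 12 of 16 rose. A faller appeared among the interferon-stimulated genes without anti-CD36 replicate 1, among the effectors without untreated replicate 1 or 3 or LPS replicate 1, and in the inflammasome list without anti-CD36 replicate 1 (1 gene) or LPS replicate 1 (2 genes).

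Antimicrobial and redox effectors rose in 18 of 22 tested genes and fell in 0, with a median of 1.84. Acod1, the enzyme that makes itaconate, stood at 7.13, 8.68 and 6.43 FPKM without LPS and 1269, 1368 and 1390 FPKM with it. Ptgs2, the inducible prostaglandin synthase COX-2, stood at 2.66, 2.93 and 2.59 FPKM against 589, 631 and 708. Nos2, the inducible nitric oxide synthase, stood at 3.49, 3.45 and 3.81 FPKM against 111, 110.4 and 109.6 (log2 change 4.60, adjusted p = 3.35e-12). In all 3 genes the libraries of a group lay close together and the groups far apart. Lcn2, which captures bacterial iron carriers, rose from 0.0319 ± 0.0164 to 48.0 ± 0.865 FPKM. The other enzymes of lipid mediators did not follow Ptgs2 as a group, since of 14 prostaglandin and leukotriene genes 4 rose and 8 fell. Without LPS 3 of the 14 would not have passed the filter, and of the 9 that passed both with and without it 1 rose and 6 fell. Ptges, the terminal prostaglandin E synthase, rose from 0.272 ± 0.0446 to 4.66 ± 0.258 FPKM, while the leukotriene enzyme Alox5 fell from 11.4 ± 0.690 to 3.06 ± 0.115 FPKM. Hpgd, which inactivates prostaglandins, stood at 14.2, 15.8 and 15.7 FPKM without LPS and 2.26, 2.29 and 2.30 FPKM with it, so every library with LPS lay below every library without.

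The target of the antibody was itself among the risers. Cd36 stood at 0.411, 0.471 and 0.256 FPKM with the antibody alone and 10.4, 10.9 and 12.3 FPKM with LPS added, 29.6-fold higher in mean FPKM and a log2 change of 3.15 (SE 0.14, adjusted p = 4.49e-09). All 3 libraries with LPS lay above all 3 without. No antibody library reached 1 FPKM, so the filter favoured its rise. Of 20 scavenger receptors and lipid-associated macrophage genes 10 rose and 7 fell. Of the 20, 2 would not have passed the filter on the libraries without LPS. Of the 18 that passed both with and without LPS 8 rose and 7 fell. Fabp4, a fatty acid carrier, rose from 1.53 ± 0.220 to 23.5 ± 1.24 FPKM, and Msr1, scavenger receptor A, from 17.3 ± 0.892 to 69.9 ± 6.34 FPKM. On the same list Trem2, a receptor for lipids and cell debris, stood at 51.9, 37.6 and 41.7 FPKM without LPS and 4.85, 4.78 and 5.08 FPKM with it (log2 change −2.91, adjusted p = 6.90e-08). Gpnmb, a glycoprotein of lipid-laden macrophages, stood at 126, 122 and 131 FPKM against 22.2, 20.5 and 19.1. Both of these fell without overlap. On the list 50.0% rose and 35.0% fell, beside 16.3% and 31.3% of all genes, so the share that fell was near that of all genes.

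Of 15 tested macrophage identity genes, which include receptors and transcription factors, 8 rose (53.3%, beside 16.3% of all genes) and 4 fell (26.7%, near the 31.3% of all genes). Of the 13 that passed the filter both with and without LPS 7 rose and 3 fell. Adgre1, the gene of the antigen F4/80, stood at 6.98, 9.25 and 8.17 FPKM without LPS and 16.1, 18.04 and 20.1 FPKM with it, while Csf1r, the receptor for the macrophage growth factor, stood at 217, 232 and 242 FPKM against 145, 139.5 and 139.8. Neither gene had overlapping groups. Siglec1, a sialic acid receptor, rose from 0.923 ± 0.0681 to 28.3 ± 1.06 FPKM and the integrin Itgam from 6.97 ± 1.55 to 30.2 ± 2.29 FPKM. Of 13 costimulatory and checkpoint genes 9 rose and 3 fell, but 3 of the 13 would not have passed the filter on the libraries without LPS. Of the 9 that passed both with and without LPS 6 rose and 2 fell. Cd40, a costimulatory receptor, rose from 0.340 ± 0.104 to 30.4 ± 3.03 FPKM, and Sirpa, which receives the signal that blocks phagocytosis, fell from 51.0 ± 1.71 to 22.9 ± 0.482 FPKM. Of 24 genes of TREM and C-type lectin receptors and their adaptors 16 rose and 4 fell. Without LPS 3 of the 24 would not have passed the filter, and of the 19 that passed both with and without it 13 rose and 2 fell. Clec4e, the receptor Mincle for mycobacterial glycolipid, rose from 15.1 ± 0.942 to 128 ± 7.02 FPKM, whereas the Fc receptor Fcgr3 fell from 3.64 ± 0.372 to 0.656 ± 0.107 FPKM. Fpr2, a receptor for formyl peptides, was listed at 0 in the 3 antibody libraries and stood at 3.41, 4.87 and 4.16 FPKM with LPS.

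The genes of largest fall are more mixed in function. Cd24a, a surface glycoprotein, stood at 29.2, 32.4 and 34.6 FPKM without LPS and 2.02, 1.76 and 2.30 FPKM with it, a log2 change of −3.45 (SE 0.11, adjusted p = 5.55e-10). Scel, which codes for sciellin, stood at 10.4, 12.9 and 12.6 FPKM against 0.531, 0.665 and 0.797. No library with both LPS and antibody reached 1 FPKM for Scel, so the filter favoured its fall. Cldn11, a tight junction protein, stood at 90.2, 80.5 and 92.4 FPKM against 13.7, 13.3 and 13.8. All 3 genes were low in every library with LPS. Others of the 12 were Ndrg4 (log2 change −2.75), the guanylyl cyclase Gucy2g (−2.60), Serpinb8 (−2.49) and the mitotic kinase Plk1 (−2.38).

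Cell division genes fell almost without exception. All 56 tested genes of mitosis and the spindle fell, 51 of them by at least 2-fold, with a median of −1.42, and 44 of 45 genes of DNA replication fell and 0 rose, with a median of −0.88. Foxm1, the transcription factor of the late cell cycle, stood at 20.1, 18.7 and 19.7 FPKM in the antibody libraries and 4.55, 4.68 and 4.70 FPKM with LPS (log2 change −1.86, SE 0.07, adjusted p = 1.08e-09). Plk1 stood at 59.9, 51.3 and 56.5 FPKM against 10.7, 9.96 and 9.15. Cenpa, the centromere histone whose printed promoter holds CCAAT boxes on the opposite strand, stood at 32.8, 30.6 and 30.7 FPKM against 9.80, 8.73 and 8.90. In none of these genes did a library with LPS come near one without it. Lig1, the replicative DNA ligase, fell from 45.1 ± 0.546 to 17.9 ± 0.198 FPKM, and Mcm7, a subunit of the replicative helicase, from 83.3 ± 1.72 to 33.2 ± 1.07 FPKM. Orc1, the origin binding subunit, was the replication gene not called and is named for that after its values were seen, at 5.46, 7.17 and 5.59 FPKM without LPS and 5.12, 6.10 and 6.35 FPKM with it. Of 34 genes of homologous recombination and Fanconi repair 30 fell and 0 rose, such as Fanca (from 3.74 ± 0.179 to 1.52 ± 0.0938 FPKM).

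Among G1 cyclins, their kinases and inhibitors 15 of 27 genes fell (55.6%, beside 31.3% of all genes) and 5 rose (18.5%, near the 16.3% of all genes). Cdkn1a, the inhibitor p21, was among the risers, from 51.1, 41.4 and 47.3 FPKM without LPS to 211, 202 and 200.2 FPKM with it (log2 change 2.12, adjusted p = 1.36e-07), with no overlap. The inhibitor Cdkn2c fell from 11.5 ± 0.911 to 3.52 ± 0.417 FPKM and the kinase Cdk2 from 19.4 ± 1.37 to 11.1 ± 0.291 FPKM, while the cyclin Ccnd2 rose from 1.08 ± 0.127 to 3.78 ± 0.298 FPKM.

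**Figure D3:**
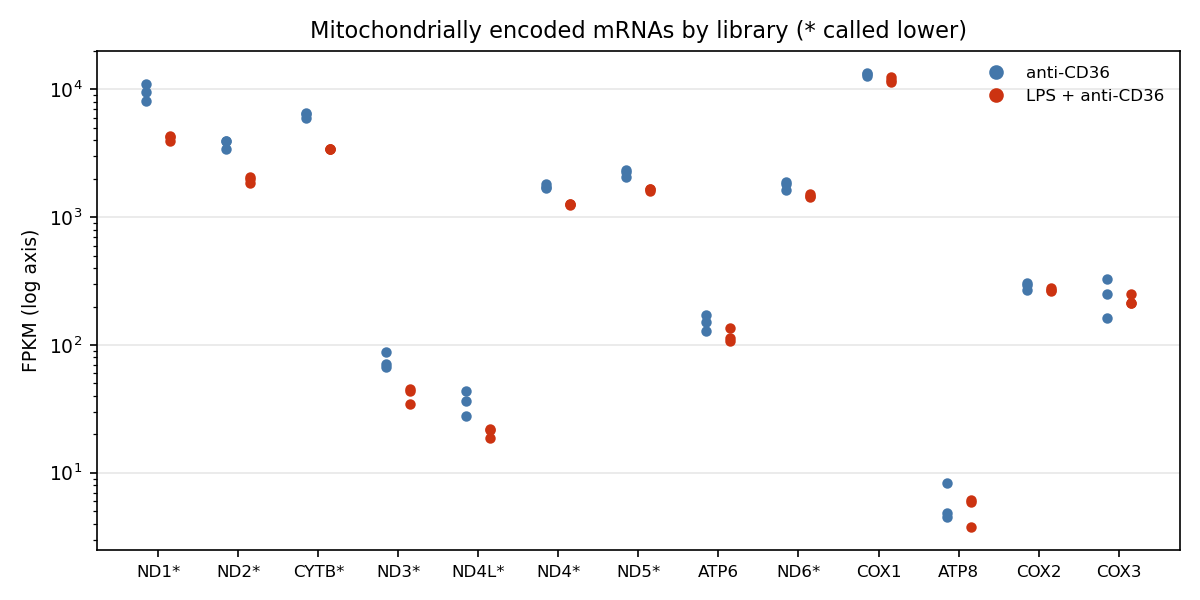
FPKM of the 13 mitochondrially encoded mRNAs on a log axis, 1 point per library, blue for anti-CD36 and red for LPS plus anti-CD36, ordered by log2 change, with an asterisk on genes called lower. The groups of ND1, ND2 and CYTB are well apart, while those of COX2, COX3 and ATP8 overlap.

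Messages from the mitochondrial genome did not fall as a block. The 7 ND genes, which code for subunits of complex I, and CYTB, of complex III, were called lower, while COX1, COX2 and COX3 of complex IV and ATP6 and ATP8 of the ATP synthase were not called. ND1 stood at 10980, 8132 and 9493 FPKM without LPS and 4324, 4248 and 3967 FPKM with it, a log2 change of −1.18 (SE 0.15, adjusted p = 5.50e-05). CYTB stood at 6465, 5962 and 6513 FPKM against 3446, 3446 and 3407, again with no overlap. COX1 stood at 13207, 12835 and 13353 FPKM against 11412, 11894 and 12608, a log2 change of −0.13 (adjusted p = 0.302) that lies close to the median of all genes. The COX and ATP genes and ND3, ND4L, ND5 and ND6 are named after their values were seen. With median-of-ratios scaling 5 of the 13 were called lower and 0 higher. Of 40 tested nuclear genes of oxidative phosphorylation 9 fell and 0 rose, or 1 and 0 with that scaling and 18 and 0 with TPM scaling, and the share of 22.5% is below the 31.3% of all genes called lower. It was 3 genes without anti-CD36 replicate 1, 4 without replicate 3 of either group and 5 without LPS plus anti-CD36 replicate 2, with Ndufb8 of complex I among those of smallest p (from 3.99 ± 0.347 to 2.26 ± 0.339 FPKM). In the TCA cycle 11 of 29 genes fell (37.9%) and 2 rose, or 5 and 2 with that scaling and 7 and 2 without anti-CD36 replicate 2 or LPS plus anti-CD36 replicate 1, the risers being Acod1 and the dehydrogenase subunit Dld (from 46.0 ± 4.59 to 66.6 ± 4.84 FPKM).

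In fatty acid synthesis and desaturation 11 of 17 genes fell (64.7%, beside 31.3% of all genes) and 1 rose (2 without anti-CD36 replicate 2 or LPS replicate 1), with a median of −0.61. Without LPS 1 of the 17 would not have passed the filter. Of the 16 that passed both with and without LPS 11 were called lower and 0 higher. Scd2, a desaturase, stood at 117, 160.5 and 144 FPKM without LPS and 58.0, 64.0 and 60.4 FPKM with it (log2 change −1.18, adjusted p = 5.67e-06), groups that did not overlap. Fads2, which desaturates polyunsaturated fatty acids, fell from 86.9 ± 2.17 to 45.2 ± 2.19 FPKM. Of 29 genes that make, import or control cholesterol 11 fell (37.9%) and 2 rose (1 without LPS plus anti-CD36 replicate 3), or 6 and 3 with median-of-ratios scaling, under which 21.6% of all genes were lower. The shares that fell are near those of all genes, while 6.9% rose in the main fit beside 16.3% of all genes. Npc2, which moves cholesterol out of lysosomes, rose from 60.6 ± 4.20 to 126 ± 4.78 FPKM. On a list of the sterol receptor LXR, its partners and targets and cholesterol efflux, 8 of 14 genes fell (57.1%, beside 31.3% of all genes). The 2 that rose made up 14.3%, near the 16.3% of all genes. With median-of-ratios scaling 4 fell and 2 rose. It was 5 and 2 without anti-CD36 replicate 3 or any 1 of the LPS plus anti-CD36 libraries. Abcg1, a cholesterol exporter of that list, stood at 13.0, 13.9 and 14.2 FPKM against 3.98, 4.37 and 3.81, with all libraries with LPS at the bottom. In fatty acid oxidation 10 of 22 genes fell (45.5%) and 3 rose (13.6%, near the 16.3% of all genes), or 7 and 6 with that scaling. Acaa2, the last enzyme of the spiral, was lower (from 25.7 ± 2.07 to 10.8 ± 0.493 FPKM) and so was Cpt1a, the entry step into mitochondria (from 2.63 ± 0.128 to 0.992 ± 0.105 FPKM).

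Targets of hypoxia-inducible factor and glycolysis genes are given with all 4 groups, because some of their LPS changes were lower with the antibody. The interaction was called lower for 14 of 29 and 4 of 25 of them. Of 29 tested genes of the hypoxia list 13 fell (44.8%) and 5 rose (17.2%) in antibody-treated cells, with a median of −0.32. The share that rose was near the 16.3% of all genes. The risers numbered 3 without anti-CD36 replicate 1 or 3 or LPS plus anti-CD36 replicate 3. In cells without the antibody 3 genes fell and 12 rose, with a median of 0.17. Bnip3, a mitophagy receptor whose printed promoter holds ACGTG, stood at 48.1, 51.9 and 50.1 FPKM with the antibody and 11.9, 15.8 and 16.8 FPKM with LPS and antibody. Without antibody it stood at 72.3, 72.4 and 66.5 FPKM in untreated cells and 80.6, 87.0 and 88.6 FPKM with LPS. The libraries with LPS were thus the lowest of all under the antibody and the highest of all without it. The log2 changes were −1.70 and 0.28, and the difference between them, tested as an interaction in the same limma fit, was −1.98 (SE 0.16, adjusted p = 0.000135).

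Ndrg1, a stress-responsive gene of the same list, stood at 13.2, 15.2 and 15.3 FPKM with the antibody, 4.77, 4.86 and 4.26 FPKM with LPS and antibody, 14.3, 15.6 and 14.5 FPKM untreated and 24.7, 22.7 and 20.8 FPKM with LPS alone. It was called lower in one LPS comparison and higher in the other (difference −2.05, SE 0.12, adjusted p = 1.10e-05). Adm, the peptide hormone adrenomedullin, stood at 4.96, 7.09 and 6.25 FPKM with the antibody and 2.97, 2.88 and 2.58 FPKM with LPS and antibody, against 4.68, 6.47 and 6.82 FPKM untreated and 12.5, 11.5 and 14.3 FPKM with LPS alone (difference −1.87, adjusted p = 0.000512). Its libraries without LPS lay in the same range with and without antibody. Egln3, an oxygen-sensing prolyl hydroxylase, moved by −0.50 with the antibody and 0.41 without (difference −0.91, adjusted p = 0.00107). Slc2a1, the glucose transporter GLUT1, rose in both, to 79.6 ± 1.87 FPKM with the antibody and 152 ± 18.9 FPKM without, from 47.8 ± 1.22 and 47.8 ± 3.59 FPKM (difference −0.92, adjusted p = 0.00424). Ddit4, an inhibitor of mTOR, likewise reached 23.6 ± 3.80 FPKM with the antibody and 56.2 ± 9.99 FPKM without (difference −1.04, adjusted p = 0.0374, and not called in 11 of 23 alternatives). In the whole list the interaction was called lower for 14 genes and higher for 0, and over 23 alternatives for 12 to 21 and 0. Hif1a itself, named after its values were seen, stood at 34.9, 46.7 and 40.4 FPKM against 40.7, 43.8 and 47.5 FPKM, with a log2 change of 0.12 (adjusted p = 0.602).

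**Figure D4:**
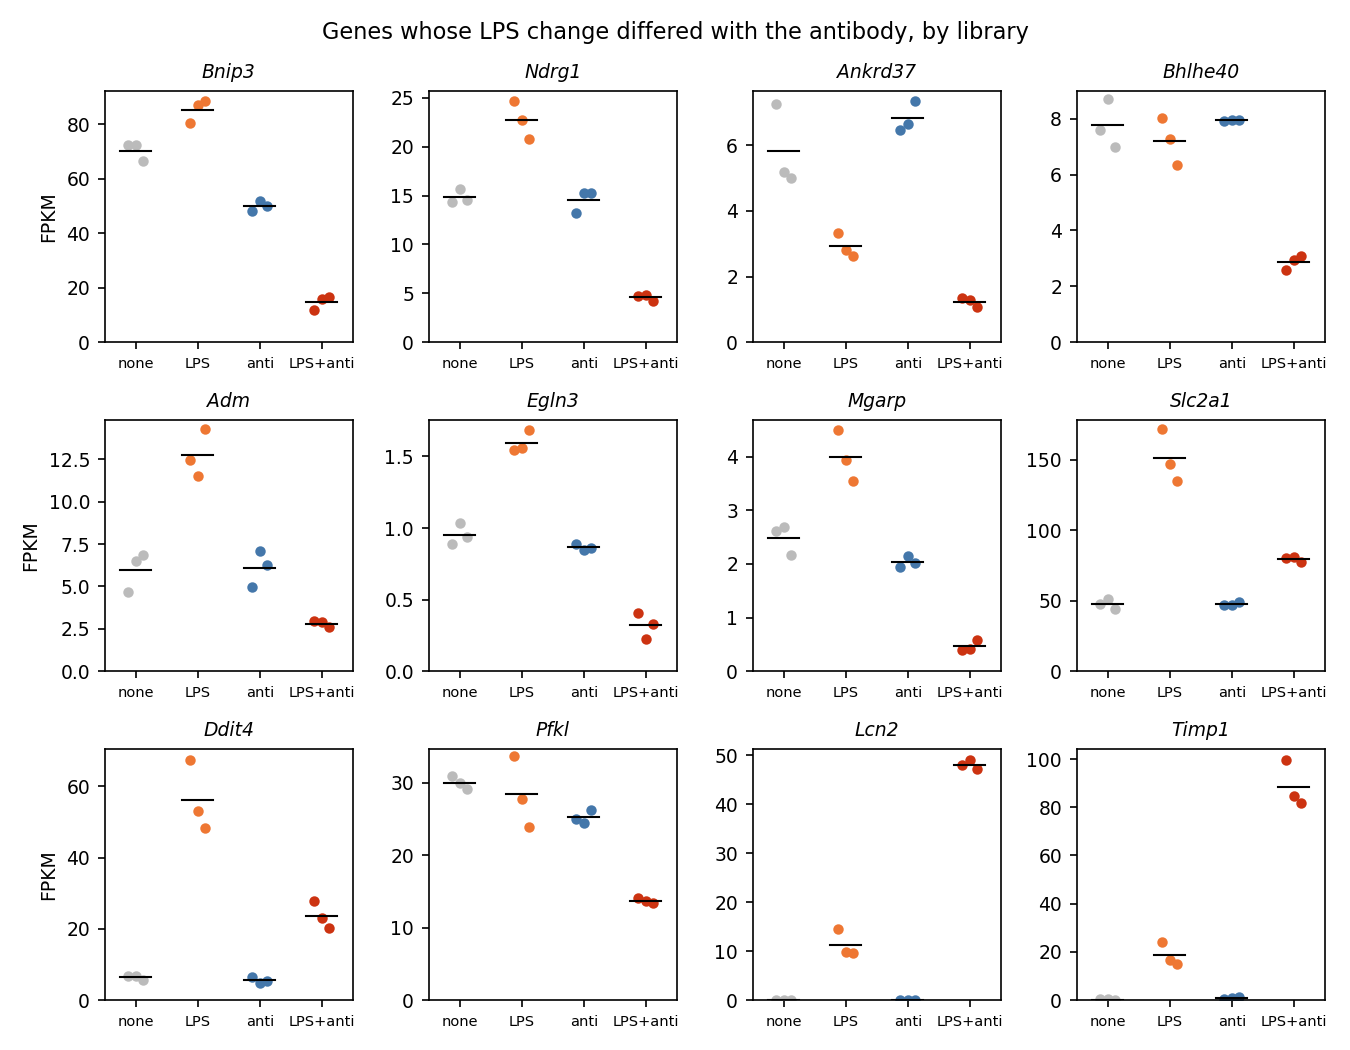
FPKM by library of 12 genes whose LPS change differed with the antibody, in untreated cells (none), LPS, anti-CD36 (anti) and both, with bars at group means and separate linear axes from 0. In Bnip3, Ndrg1, Adm, Egln3 and Mgarp the LPS libraries are the highest without antibody and the lowest with it. Ankrd37, Bhlhe40, Slc2a1, Ddit4 and Pfkl are lower with both agents than with LPS alone, and Lcn2 and Timp1 higher.

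In glycolysis and lactate transport 11 of 25 genes fell (44.0%) and 4 rose (16.0%) in antibody-treated cells, with a median of −0.28. The share that rose was near the 16.3% of all genes, and with median-of-ratios scaling 6 fell and 8 rose. The fallers numbered 7 without anti-CD36 replicate 3 or LPS plus anti-CD36 replicate 2 or 3. Pfkm, a phosphofructokinase subunit, stood at 8.98, 10.1 and 9.89 FPKM without LPS and 3.87, 3.72 and 3.39 FPKM with it (log2 change −1.20, adjusted p = 2.91e-07). Tpi1, triose phosphate isomerase, stood at 538, 456 and 475 FPKM against 254, 248 and 226 (log2 change −1.01, adjusted p = 0.00025). The groups of both genes did not overlap. Without the antibody 3 genes of the list fell and 10 rose, and the interaction was called lower for 4 members and higher for 0, or for 1 to 14 and 0 over 23 alternatives.

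The LPS change with the antibody can be set beside that without it over all genes, since the comparisons share no library. LPS alone against untreated gave 1710 genes higher and 3403 lower, 5113 of 10276 (49.8%). Higher in both were 1421 genes, 85.1% of the risers with the antibody and 83.1% of those without it, and lower in both were 2759, 85.9% and 81.1% of the fallers. Across the 10276 genes the log2 changes correlated by Pearson's r of 0.94 and Spearman's rho of 0.89, given as a description because genes are not independent. Among genes called the same way in both, the median ratio of the change with the antibody to that without it was 0.96. In opposite directions 2 genes were called higher with the antibody and lower without it, and 19 lower with it and higher without, among them Mgarp, Ciart, Bhlhe41, Adm, Pgm1, Egln3, Ccng2 and Ndrg1.

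**Figure D5:**
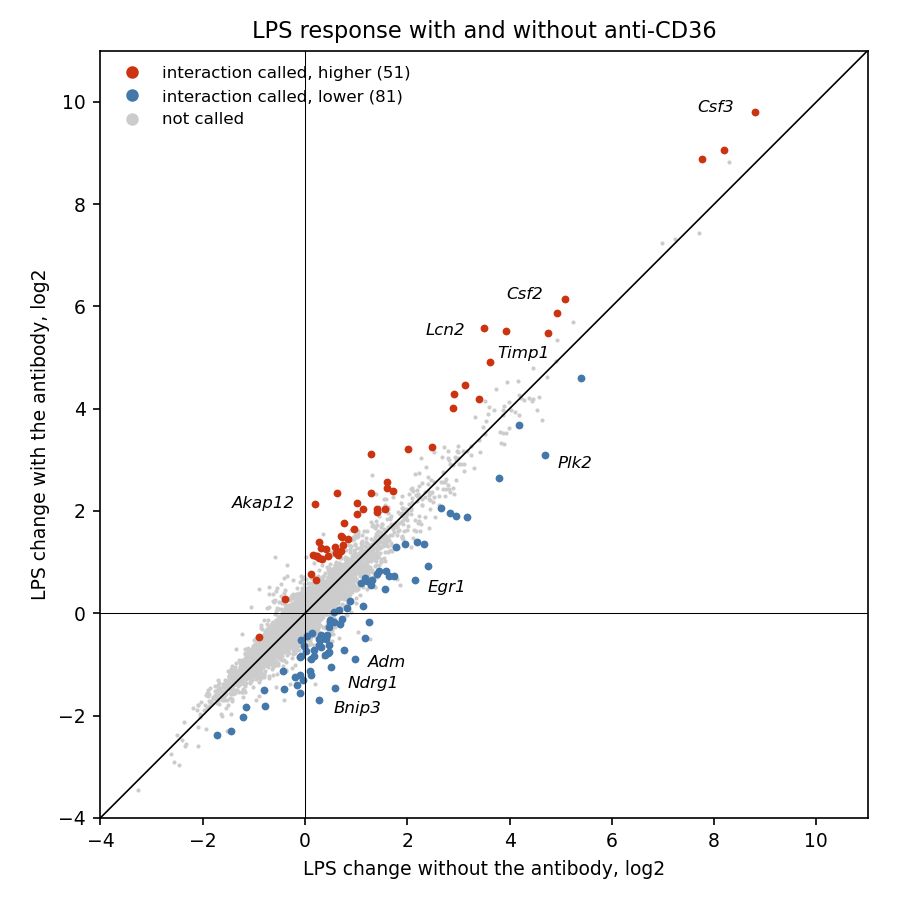
Log2 change by LPS without the antibody (horizontal axis) against that with it (vertical axis) for the 10276 genes tested, with the line of equal change. Red and blue points are the 51 and 81 genes whose interaction was called higher and lower, and grey points were not called. Most genes lie along the line, and Adm, Ndrg1 and Bnip3 lie in the quadrant of opposite signs.

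The interaction was called for 132 of 10276 genes (1.28%), 51 with a higher and 81 with a lower LPS change in the presence of the antibody, and 884 genes had an unadjusted p under 0.05. Of the 132, 121 were also called in antibody-treated cells: 50 higher with a higher interaction, 26 higher with a lower one, 44 lower with a lower one and 1 lower with a higher one. Of the 132, 14 (12 higher, 2 lower) reached 1 FPKM in libraries of only 1 group, so the filter favoured their difference. For 44 of the 132 fewer than 3 libraries without LPS reached 1 FPKM, so the difference rests mostly on the levels with LPS. The count ranged from 77 to 161 when single libraries were left out, and was 212 with the replicate block, 347 with the GC and length trend removed and 507 with both. With a pseudocount of 0.1 the higher ones numbered 19. Leaving out untreated replicate 2 gave 83 genes, leaving out anti-CD36 replicate 3 gave 77, and leaving out LPS replicate 2 gave 80. Leaving out LPS plus anti-CD36 replicates 1, 2 and 3 in turn gave 81, 78 and 81.

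Several secreted inflammatory proteins were among those with a higher interaction. Lcn2 stood at 48.0, 49.0 and 47.2 FPKM with LPS and antibody and 14.6, 9.87 and 9.61 FPKM with LPS alone, against 0.0201, 0.0506 and 0.0250 FPKM with the antibody and 0.0704, 0.0761 and 0.0633 FPKM untreated (difference 2.06, SE 0.17, adjusted p = 0.000143). Timp1, an inhibitor of matrix proteases, stood at 99.4, 84.5 and 81.6 FPKM with both and 24.2, 16.5 and 15.1 FPKM with LPS alone (difference 1.59, SE 0.24, adjusted p = 0.00506), from 0.652, 0.897 and 1.33 FPKM with the antibody and 0.333, 0.300 and 0.156 FPKM untreated. In both genes the 3 libraries with both agents lay above all others. On the log2(FPKM + 0.1) scale the difference for Timp1 was 0.73 with no call. Akap12, a scaffold for protein kinase A, stood at 3.55, 3.63 and 4.14 FPKM with both agents and at 0.202, 0.174 and 0.211 FPKM with LPS alone, with 0.0704, 0.0690 and 0.102 FPKM with the antibody and 0.0220, 0.0494 and 0.0659 FPKM untreated. It passed the filter only through the 3 libraries with both agents, so its difference of 1.95 is a description. Csf2 reached 69.8 ± 1.65 FPKM with both and 34.2 ± 0.782 FPKM with LPS alone (difference 1.06, adjusted p = 0.000143), and Lta 24.6 ± 0.586 and 8.91 ± 0.410 FPKM (difference 1.34, adjusted p = 0.000218, with no call on the log2(FPKM + 0.1) scale). In the cytokine list 9 of 22 interactions were called higher and 0 lower. Over 23 alternatives 2 to 10 were higher and 0 to 3 lower, with the 2 at a pseudocount of 0.1. Il1b, among the 9, has in untreated replicate 2 a value equal to the mean of the other two untreated libraries, and without that library its difference was 0.86 (adjusted p = 0.0106) and 7 interactions of the list were called. Over the 23 alternatives the difference for Il1b ran from 0.39 to 0.92, with an adjusted p of up to 0.693, and was called in 21. Cd36 itself, at 11.2 ± 0.974 FPKM with both agents and 5.86 ± 1.47 FPKM with LPS alone, had a difference of 0.62 with no call (adjusted p = 0.239).

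Among genes with a lower interaction, Plk2, a kinase of the stress response, rose in both settings but to 17.2, 17.8 and 21.7 FPKM with both agents against 40.4, 47.3 and 52.2 FPKM with LPS alone (difference −1.60, adjusted p = 0.000276). Egr1, an immediate early factor, stood at 8.18, 7.94 and 8.56 FPKM with the antibody and 14.9, 13.0 and 12.8 FPKM with both, against 6.72, 7.24 and 6.76 FPKM untreated and 38.5, 31.2 and 32.9 FPKM with LPS alone (difference −1.49, adjusted p = 0.000143). Its level with both agents lay between those without LPS and that with LPS alone. Nos2 reached 110.3 ± 0.678 FPKM with both and 188 ± 20.8 FPKM with LPS alone, from 3.58 ± 0.198 and 3.45 ± 0.237 FPKM (difference −0.80, adjusted p = 0.00572). Ephx1, an epoxide hydrolase, fell with the antibody (−1.20) and moved by 0.12 without it (difference −1.32, adjusted p = 0.000193). No interaction was called in the lists of interferon-stimulated genes, DNA replication, mitosis and mitochondrially encoded mRNAs, where 9, 2, 7 and 0 members had an interaction p under 0.05 before adjustment, so their changes are not shown to be equal.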

How the data were processed

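RNA was sequenced from RAW264.7 cells in 4 groups of 3 libraries. The deposited table holds FPKM values computed by the authors, with 31801 entries named by gene symbol. HISAT2 2.0.5 and the builds mm39 and hg38 are named, without roles, in the submitters' processing notes, and the counting tool and annotation are not given in the sources used here. The values fall on whole multiples of a step, from which counted reads were recovered: 94.4% of 17671 entries were whole in every library at their annotated length, within 0.005 reads.

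For repeated symbols the entry of highest mean was kept (82 left out), and Il6 was left out, which gave 10276 genes at 1 FPKM or more in 3 or more libraries. Values were analysed as log2(FPKM + 1), a scale that understates the change of low genes. One limma 3.58.1 model (R 4.3.3) of the 4 group means in all 12 libraries, with an intensity trend, gave LPS with antibody against antibody, LPS against untreated, and the interaction, their difference. P-values were adjusted by Benjamini-Hochberg over all genes, and calls were made below an adjusted p of 0.05. Tables and figures used Python 3.11.15, numpy 2.4.6, pandas 2.3.3 and matplotlib 3.10.9. The fit was tested on simulated data.

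Genes, lists and tests were chosen with earlier results of these data known. Named are Cd36, Tlr4, Cd14, Ly96, Tnf, Il1b, Nos2 and Adgre1. To these come, among called genes with non-overlapping groups and a mean of 2 FPKM or more in the higher group, the 12 that rose and the 12 that fell most, without predicted genes and pseudogenes. It also adds up to 4 members of smallest p in the leading direction and 2 in the other of each list with at least 3 called members, the 8 called genes of smallest interaction p per direction, and the 8 of smallest interaction p called in opposite directions with and without the antibody. Alternatives were other pseudocounts, filters, scalings and variance models, a replicate block, a fit of only 6 libraries and leaving out each library. Removal of a GC content and gene length trend was chosen after seeing the data. A few genes are not reported here.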

Additional observations from a re-analysis of the deposited data

Results flagged for a closer look

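In 46 of the 254 genes the naming rule chose, the LPS change differed between cells with and without the antibody by the interaction test (limma, Benjamini-Hochberg adjusted p under 0.05), 19 with a higher and 27 with a lower change under the antibody, and 45 of them are given here. Values are differences of log2 changes. With 3 libraries per group no library was tested as standing apart.

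Targets of hypoxia-inducible factor and glycolysis genes were among the lower ones: Ndrg1 at −2.05, Bnip3 at −1.98, Adm at −1.87, Bhlhe40 at −1.12, Ddit4 at −1.04, Ankrd37 at −1.02, Slc2a1 at −0.92, Egln3 at −0.91 and the phosphofructokinase gene Pfkl at −0.74. Mgarp, a mitochondrial protein, stood at −1.57 and Pgm1, which feeds glycogen synthesis, at −1.09. Clock-linked repressors were Ciart at −1.47 and Bhlhe41 at −1.20. Stress and immediate early genes were Ccng2 at −1.66, Plk2 at −1.60, Egr1 at −1.49, Atf3 at −1.16, Chac1 at −0.88 and Egr3 at −0.71. The others were Ephx1 at −1.32, the plasminogen activator Plau at −1.05, Hpgd at −0.85, Nos2 at −0.80, Gpat3 at −0.80, Kbtbd11 at −0.66 and the complement receptor C3ar1 at −0.60.

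Secreted proteins led the higher ones: Lcn2 at 2.06, Timp1 at 1.59, Lta at 1.34, Ccl17 at 1.28, Retn at 1.13, Il1a at 1.12, Csf2 at 1.06, Csf3 at 1.00, Il27 at 0.95, Il1b at 0.86 and Ccl22 at 0.74. The others were Akap12 at 1.95, Cstdc4 at 1.38, Gstt4 at 1.13, the receptor Fpr2 at 1.06, Nr4a1 at 1.01, Cd247 at 0.98, Srxn1 at 0.50 and Itgal at 0.47.

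Many of these calls are not steady. Of 23 alternatives the interaction was called in 6 for Itgal, 9 for Il27, 10 for Ccl22, 11 for Csf3, 12 for Ddit4 and Pfkl, 13 for Ccl17, Srxn1, Egr3, Kbtbd11 and C3ar1 and 14 for Chac1, and for Gpat3 in 16 of 22. Akap12, Retn and Cd247 reached 1 FPKM in 1 group only, so the filter favoured their difference. The value of Il1b in untreated replicate 2 equals the mean of the other two untreated libraries.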

How the results depend on the processing

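The counts of genes called higher and lower by LPS in antibody-treated cells moved by less than 1.5 times under every alternative run, from 4024 to 5447 together, 1423 to 1848 higher and 2601 to 3599 lower with 1 library left out, and LPS against untreated gave 4302 to 5459. The interaction was less steady: 77 to 161 genes together, 28 to 65 higher and 47 to 96 lower with 1 library left out. It gave 85 genes with a filter of 5 FPKM (25 higher), 19 higher with a pseudocount of 0.1 and 27 higher with TPM scaling. With the GC and length trend removed it gave 347 (121 higher, 226 lower), and 507 (181 and 326) with the replicate block as well. Labels give no pairing, and libraries of the same number correlated in their deviations by 0.446, −0.017 and 0.034, so the replicate block is only an alternative. With it 6022 genes were called (2020 higher, 4002 lower) and 212 interactions (71 and 141). Of the 254 named genes, 23 lost their call in some alternative, in 83 gene and setting pairs, and Ly96, never called, changed sign with median-of-ratios scaling (0.06) and ran from −0.26 to 0.05 with 1 library left out. Of 46 interactions 19 lost their call in some alternative.

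In these lists the direction with more called members turned. LPS sensing had 19 called with TPM scaling, 23 with the replicate block and 23 in the fit of only 6 libraries. With median-of-ratios scaling glycolysis had 14 called, pentose phosphate 5, heat shock 3 and ribosome biogenesis 7. Pentose phosphate had 7 to 10 with 1 library left out, and turned at 7, without anti-CD36 replicate 1, anti-CD36 replicate 3 or LPS plus anti-CD36 replicate 3, and ribosomal proteins had 3 in the fit of only 6 libraries. Heat shock had 5 fallers, and 2 or 3 without replicate 1 or 3 of either group. The faller of the integrated stress response was lost in 6 of 12 such fits, and iron handling had 1 faller in 7 of 12. The causes were not tested. Depth limits genes near 1 FPKM, where 1 FPKM stood for 60.3 reads at 2000 bases in the shallowest of the 6 libraries.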

Other observations

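Other gene lists can be read beside the 16.3% of all genes called higher and 31.3% called lower. In the integrated stress response, the programme that slows translation under stress, 19 of 26 tested genes rose and 1 fell, with a median log2 change of 0.66 against −0.12 for all genes. Its transcription factor Ddit3 (CHOP) stood at 3.12, 4.44 and 3.41 FPKM with the antibody and 14.4, 14.3 and 15.5 FPKM with LPS added, and Sesn2, a sensor of leucine, at 4.64, 3.92 and 4.25 FPKM against 18.8, 18.4 and 17.99. The groups of both genes were apart. In the unfolded protein response 5 of 25 genes were higher (20.0%, near the share of all genes) and 2 lower (8.0%), the latter including Xbp1, one of its transcription factors (from 85.3 ± 3.32 to 62.8 ± 0.367 FPKM). Of 23 targets of the antioxidant factor NRF2 8 were higher (34.8%) and 8 lower (34.8%, near the share of all genes, and 5 without anti-CD36 replicate 1). Hmox1, haem oxygenase, stood at 75.7, 70.3 and 76.9 FPKM against 441, 454 and 441 (log2 change 2.57, limma adjusted p = 1.97e-09), and Slc7a11, the cystine importer, rose from 2.42 ± 0.382 to 16.0 ± 0.905 FPKM.

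In iron handling 8 of 14 genes rose and 2 fell. Slc11a1, which pumps metal out of the phagosome, rose from 7.17 ± 0.168 to 26.0 ± 0.993 FPKM, and Steap3, a ferrireductase of the transferrin cycle, fell from 4.29 ± 0.228 to 1.13 ± 0.0258 FPKM. RAW264.7 cells can form osteoclasts, and of 10 markers of that fate 5 fell and 2 rose: Nfatc1, its master factor, stood at 23.8, 21.0 and 22.96 FPKM without LPS and 8.38, 7.34 and 8.24 FPKM with it, and Acp5, the phosphatase TRAP, fell from 3.97 ± 0.219 to 2.14 ± 0.399 FPKM. Mmp9, a gelatinase on the same list, rose from 1.18 ± 0.135 to 44.3 ± 3.31 FPKM. In lysosome and autophagy genes 13 of 35 fell (37.1%) and 7 rose (20.0%), shares near those of all genes, with the protease Ctsh lower (from 8.94 ± 1.14 to 1.99 ± 0.0821 FPKM) and the autophagy receptor Sqstm1 higher (from 85.5 ± 6.87 to 241 ± 18.1 FPKM).

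Of integrins, proteases and matrix genes 14 of 22 rose and 5 fell. The other 12 of the 34 listed were not tested, and 4 of the 22 would not have passed the filter on the libraries without LPS. Of the 18 that passed both with and without LPS 11 rose and 5 fell. Plau, the plasminogen activator urokinase, fell from 90.9 ± 13.3 to 37.6 ± 2.05 FPKM. Among purinergic, formyl peptide and complement receptors 9 of 11 rose and 1 fell, with the complement receptor C5ar1 higher (from 8.46 ± 0.746 to 49.9 ± 3.12 FPKM) and the ATP receptor P2rx7 lower (from 4.39 ± 0.520 to 2.10 ± 0.0482 FPKM). The other 12 of the 23 listed were not tested, and 3 of the 11 would not have passed the filter on the libraries without LPS. Of the 8 that passed both with and without LPS 6 rose and 1 fell. Of 37 ribosomal protein genes 1 rose and 0 fell in limma, with 2 higher and 0 lower at an unadjusted p under 0.05, and 0 or 2 called higher without LPS plus anti-CD36 replicate 1 or 3. Of 16 housekeeping genes 3 rose (18.8%, near the 16.3% of all genes) and 3 fell (18.8%, below the 31.3% of all genes, and 5 without anti-CD36 replicate 1). Among the risers was Actb, which is often used as a reference, from 1841, 1709 and 1847 FPKM to 3278, 3238 and 3041 FPKM (log2 change 0.82, limma adjusted p = 7.57e-05).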
